A study of Mus musculus with 4 samples.

Results

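The presynaptic active zone is the patch of axon terminal membrane where synaptic vesicles dock, are primed and fuse. It is built by a small set of large scaffold proteins, and the genes for 10 of them, Unc13a, Unc13b, Bsn, Pclo, Rims1, Rims2, Rims3, Erc1, Erc2 and Rimbp2, were followed here in mouse embryonic stem cells (ESCs) with and without REST. They were taken by symbol, and all 10 were found among the 26301 genes of the count table. Libraries made from total RNA were sequenced, 2 of WT (line N6) and 2 of REST-/- cells (line N8), described as biological replicates. Both lines grew with serum and leukemia inhibitory factor on irradiated mouse embryonic fibroblasts, and were passaged on gelatin to remove those feeders before harvest. Each genotype is a single cell line, so a difference between the genotypes and a difference between the lines cannot be told apart.

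REST is a transcriptional repressor that binds the RE1 element, a bipartite DNA sequence, and holds many genes of mature neurons silent in stem cells and in tissues other than brain. At a synapse the scaffold works in layers. RIM proteins (Rims genes) hold vesicles through Rab3 and hold calcium channels through RIM-binding proteins (Rimbp2), Munc13 proteins (Unc13 genes) prime the docked vesicles for fusion, and ELKS proteins (Erc genes), Bassoon (Bsn) and Piccolo (Pclo) form the surrounding matrix. ESCs form no synapses.

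The RE1 letters near these genes are shown first, because the members differed in them. The RE1 motif was the one shown by the study for regions bound by REST. The motif, CAGNACCNNGGACAG, has 15 bases, of which 12 are fixed, and consists of the left arm CAGNACC and the right arm GGACAG with 2 free bases between them. Both strands of NCBIM37 (mm9), the build in the submitters' processing notes, were searched against the start sites of GENCODE M1. A search for the same arms with 7 to 10 free bases between them, called the spaced form here, was added after the values had been seen, and it does not overlap the first search since the spacing differs. In the sequences that follow the capitals mark the left and the right arm, and each is written 5′ to 3′ on the strand of the match.
Unc13a, spaced, chr8:74195628-74195648, plus strand: cttCAGCACCgggggcgcGGACAGcgc
Rims2, spaced, chr15:39028872-39028891, plus strand: gtcCAGTACCccgcccgGGACAGctc
Unc13b, spaced, chr4:43060914-43060933, plus strand: actCAGGACCtctagaaGGACAGcca
Rims3, all 12 letters, chr4:120539078-120539092, minus strand: gcatcagCAGCACCaaGGACAGcggccag
Rims3, all 12 letters, chr4:120553501-120553515, plus strand: aaatgtcCAGTACCaaGGACAGagccctt
Rimbp2, all 12 letters, chr5:129385201-129385215, minus strand: ggaaggcCAGCACCatGGACAGagtcctc
Unc13b, 11 of 12 letters, chr4:43243217-43243231, plus strand: tgtgcagCAGCTCCtgGGACAGgagaggt
Rims1, 11 of 12 letters, chr1:22813256-22813270, minus strand: catggacCAGGACCtgGGAGAGggaggat
Erc2, 11 of 12 letters, chr14:28688106-28688120, plus strand: aaataagCAGTACCacAGACAGtagatgc
Pclo, 11 of 12 letters, chr5:14516415-14516429, minus strand: gatgtttCAGGACCatGGATAGacagata

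The match at Unc13a was centred 18 bp inside the transcript, in its annotated 5′ UTR, on the strand opposite to the gene. The match at Rims2 lay 997 bp upstream of a start site and that at Unc13b 10902 bp upstream. Unc13a and Rims2 were the members with a spaced match within 1 kb of a start site, a feature of 1.03% of the 14166 tested genes with a position, and within 20 kb Unc13b made 3, against 8.81%. Since the spaced form was searched after the values had been seen, these shares describe it and do not test it. With the motif's own spacing and all 12 letters, Rims3 was the 1 member with a match within 20 kb, against 4.43% of the positioned genes. Its matches were intronic, 3034 and 4703 bp from the nearest start site. Farther from a start site, intronic matches of this kind included those in Rimbp2, 74029 and 100377 bp from the start site. No member had such a match within 1 kb, where 0.727% of the positioned genes did. When 1 mismatch was allowed, 7 members had a match within 20 kb, against 44.3% of the positioned genes, and within 1 kb there were 2, Unc13b and Rims1, against 6.18%. Their closest matches were intronic, 254 bp after a start site of Unc13b and 700 bp before one of Rims1, while those of Erc2 and Pclo were intronic too, 1177 bp before a start site of Erc2 and 1504 bp after that of Pclo. None of these searches found a match within 20 kb of a Bsn start site, which says only that these letters are not in that window and nothing about binding of REST there. A match likewise describes letters and does not show binding.

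The 4 libraries held from 22293966 to 30953863 counts on genes. Rest itself was counted 7908 and 6233 times in WT, and 4244 and 3890 times in REST-/- libraries, and these gene totals do not show which exons the reads cover. In CPM (counts relative to library size, scaled with edgeR's TMM factors) Rest was at 255 and 233 in WT, against 164 and 176 in REST-/- libraries. Its log2 fold change was -0.52 (SE 0.13, adjusted p = 0.526, edgeR quasi-likelihood), so Rest was not called. The 8 pluripotency markers summed to 3542 and 3443 CPM in WT, against 2784 and 3068 CPM in REST-/- libraries, without overlap. Pou5f1 and Sox2 overlapped between the genotypes, while Zfp42, Nanog and Klf4 were lower in both REST-/- libraries, and Zfp42 (log2 fold change -1.36) was called by the exact test of edgeR with tag-wise dispersion (adjusted p = 0.000148) and not by its quasi-likelihood test (adjusted p = 0.179). Dcx, a marker of young neurons, had at most 8 counts. Of the 9 feeder fibroblast markers, 7 could be tested. The whole list summed to 30.01 and 20.4 CPM in WT and to 103 and 21.3 CPM in REST-/- replicates 1 and 2, so REST-/- replicate 1 stood apart, while Lum was at 0 in all libraries and Dcn had at most 5 counts. The 7 neuron markers summed to 226 and 240.2 CPM in WT, against 294 and 308 CPM in REST-/- libraries, with Nefl, Nefm and Rbfox3 higher in both REST-/- libraries and Tubb3, Map2 and Neurod1 overlapping between the genotypes. The 8 primitive endoderm markers summed to 75.6 and 138 CPM in WT, against 189.9 and 209 CPM in REST-/- libraries, most of it from Col4a1. All 8 had a positive log2 fold change, as did 49.2% of all genes tested, and 5 were higher in both REST-/- libraries, as were 16.5%. The exact test with tag-wise dispersion called Gata6 (adjusted p = 0.0227) and Pdgfra (adjusted p = 0.0115) higher, and the quasi-likelihood test called none of the 8. The 6 neural progenitor markers summed to 68.2 to 163 CPM, with overlap between the genotypes. What part these markers have in the results for the scaffold genes was not tested. In RNA from whole cultures, fewer cells of a type and less RNA per cell cannot be told apart.

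All 10 scaffold genes passed the filter on low counts and entered a quasi-likelihood test in edgeR of REST-/- against WT over 15444 genes, in which a gene was called at a Benjamini-Hochberg adjusted p under 0.05 over all genes tested. Unc13a was the 1 member called, and it was higher in REST-/- ESCs, a call made in that direction for 0.0518% of the genes tested. Pclo and Bsn were the next in size and were called, both higher, by the exact test of edgeR under each dispersion (tag-wise, common) named in the study's methods. Those 2 dispersions called 3 of the 10 members higher, Unc13a, Pclo and Bsn, and 1.16% and 1.59% of all genes tested. The levels of 4 members (Unc13a, Pclo, Bsn and Rims2) were higher in both REST-/- libraries than in either WT library, an arrangement of 16.5% of the genes tested, and those of 2 members (Rims1 and Erc2) were lower in both, as for 15.4%. The median log2 fold change of the 10 genes was 0.39, against -0.0047 for all genes tested. The log2 fold change was positive for 7 of them and for 49.2% of all genes tested. Without Unc13a the median was 0.20.

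**Figure D1:**
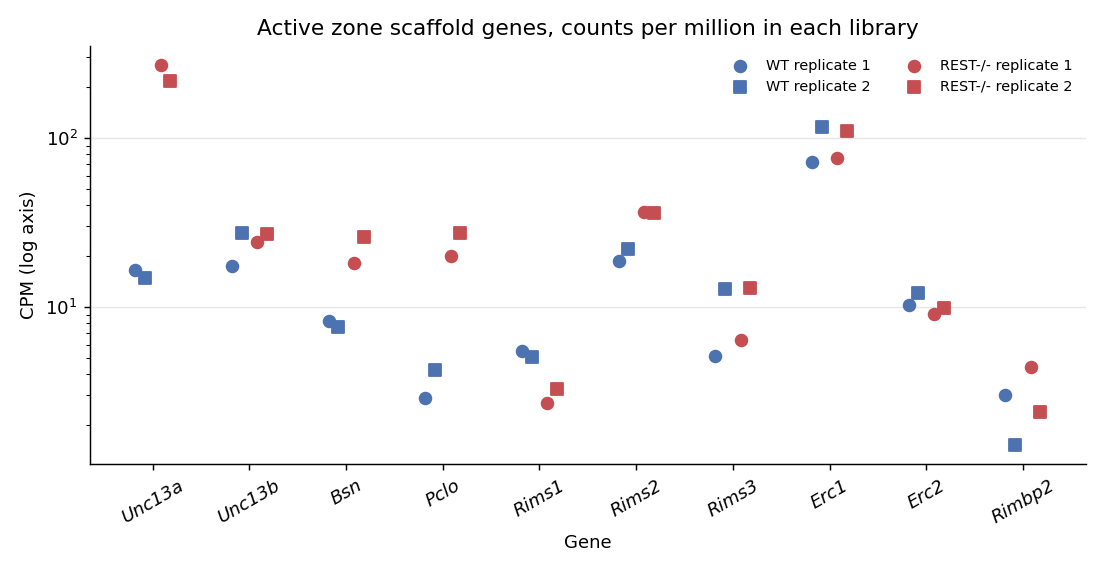
CPM of the 10 scaffold genes in each of the 4 libraries, on a log axis, with WT in blue, REST-/- in red, circles for replicate 1 and squares for replicate 2. Unc13a moves from 14.8 and 16.7 CPM in WT to 217 and 271 CPM in REST-/-, above Erc1, while the red and blue points of Unc13b, Rims3, Erc1 and Rimbp2 overlap.

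Unc13a (Entrez 382018) encodes the main vesicle priming protein of excitatory terminals in the forebrain, and lies on the minus strand of chromosome 8 of mm9 from 74150614 to 74195656. It was counted 516 and 396 times in WT, and 6998 and 4807 times in REST-/- libraries. Both REST-/- libraries were therefore far above both WT libraries, and the groups did not overlap. In CPM it rose from 15.7 ± 1.33 to 244 ± 38.1 (SD, n = 2 each), a 15.5-fold change. On the log2 scale the gain was 3.95 (SE 0.19, BH-adjusted p = 0.0374, edgeR quasi-likelihood), which ranked 43 from the highest among all genes tested. Comparing libraries of the same replicate number, the difference of log2(CPM + 0.5) was 3.98 for replicate 1 and 3.83 for replicate 2. Each library left out in turn gave a log2 fold change between 3.79 and 4.10, and it was 3.79 without REST-/- replicate 1, the library with the high feeder markers. When at least 10 counts were required in every library, which left 14330 genes, the BH-adjusted p of Unc13a (edgeR quasi-likelihood) was 0.0560 and the call was lost at the same log2 fold change of 3.95.

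Unc13b (Entrez 22249, chromosome 4, from 43071825 to 43277745) encodes a second priming protein of the same family, also transcribed in tissues outside the brain. Its counts were 542 and 730 in WT, against 629 and 598 in REST-/- libraries, and both REST-/- values, 24.3 and 27.0 CPM, lay between the WT values of 17.5 and 27.3 CPM. The log2 fold change was 0.20 (SE 0.27, BH-adjusted p = 1.000, edgeR quasi-likelihood). Per kilobase of exon (RPKM, over the union of the GENCODE M1 exons), Unc13a stood at 1.501 and 0.855 times the level of Unc13b in the WT libraries, against 17.5 and 12.7 times that level in the REST-/- ones. The paralogs thus stood near the same level in WT and stood more than 10 times apart in both REST-/- libraries.

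Pclo and Bsn encode Piccolo and Bassoon, 2 related giant proteins that span the matrix of the active zone and organise the vesicle cluster. Pclo (Entrez 26875, chromosome 5, from 14514918 to 14863457) was counted 90 and 113 times in WT, and 517 and 605 times in REST-/- libraries, with no overlap between the genotypes. Its level was 3.56 ± 0.928 CPM in WT and 23.7 ± 5.16 CPM in REST-/- ESCs (SD, n = 2 each), a 6.64-fold difference. Its log2 fold change of 2.73 (SE 0.33) missed the threshold of edgeR's quasi-likelihood model (BH-adjusted p = 0.136) and passed edgeR's exact test, at adjusted p = 5.76e-07 for tag-wise and 9.08e-08 for common dispersion. As a difference of log2(CPM + 0.5), replicate 1 gave 2.59 and replicate 2 gave 2.56.

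Bsn (Entrez 12217, chromosome 9, from 107998354 to 108092715) was counted 255 and 205 times in WT, and 469 and 579 times in REST-/- libraries, again without overlap. Its level was 7.95 ± 0.412 CPM in WT and 22.1 ± 5.65 CPM in REST-/- ESCs (SD, n = 2 each). For Bsn the log2 fold change was 1.48 (SE 0.27, BH-adjusted p = 0.332, edgeR quasi-likelihood), while edgeR's exact test gave adjusted p = 0.0292 for tag-wise and 0.0207 for common dispersion. A lincRNA gene, F630040L22Rik, overlaps Bsn on the other strand, and whether the counting used strand is not given in the sources used here. Per kilobase of exon, Pclo was at 0.275 and 0.430 times the level of Bsn in the WT libraries, against 0.860 and 0.815 times in the REST-/- ones, so the giant pair stood closer together in level in both REST-/- libraries.

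**Figure D2:**
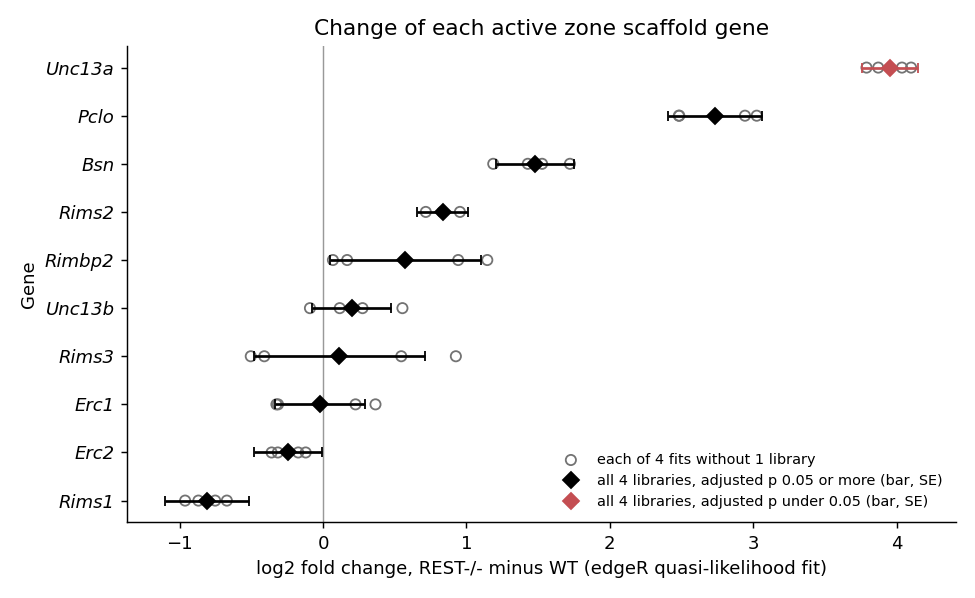
Log2 fold change of each scaffold gene, REST-/- minus WT, from edgeR's quasi-likelihood fit to all 4 libraries (diamonds, with bars of 1 standard error) and to the sets of 3 libraries left when each is dropped (open circles). Unc13a at 3.95 is the called gene, in red, and the circles of Unc13b, Rims3 and Erc1 fall on both sides of 0.

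The 3 Rims genes differed in the sign of their estimates. Rims1 and Rims2 encode the large RIM proteins that bind Rab3 on vesicles, Munc13 and calcium channels. Rims2 (Entrez 116838, chromosome 15, from 39029878 to 39513486) was counted 580 and 589 times in WT, and 940 and 801 times in REST-/- libraries. In CPM it was 20.4 ± 2.30 in WT and 36.3 ± 0.156 in REST-/- ESCs (SD, n = 2 each), and both REST-/- libraries were higher. For Rims2 the log2 fold change was 0.83 (SE 0.18, BH-adjusted p = 0.425, edgeR quasi-likelihood), and it was positive with each library left out, from 0.72 to 0.95.

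Rims1 (Entrez 116837, chromosome 1, from 22276332 to 22911673) was counted 170 and 135 times in WT, and 70 and 73 times in REST-/- libraries. Both REST-/- libraries, at 2.71 and 3.30 CPM, were below both WT libraries, at 5.49 and 5.04 CPM. The log2 fold change of Rims1 was -0.81 (SE 0.29, BH-adjusted p = 0.732, edgeR quasi-likelihood), with a range from -0.96 to -0.67 over the fits without 1 library. The ratio of Rims2 to Rims1 per kilobase of exon was 4.59 and 5.86 in the WT libraries, against 18.05 and 14.7 in the REST-/- ones.

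Rims3 (Entrez 242662, chromosome 4, from 120527421 to 120569184) encodes a short RIM that keeps only a carboxy-terminal C2 domain. Its counts were 158 and 344 in WT, against 164 and 289 in REST-/- libraries. Here the libraries fell together by replicate number, with 5.10 and 6.35 CPM in the libraries numbered 1 and 12.8 and 13.05 CPM in those numbered 2, and the genotypes overlapped. For Rims3 the log2 fold change was 0.11 (SE 0.60, BH-adjusted p = 1.000, edgeR quasi-likelihood). Rims3 was the member with a full RE1 match within 20 kb of a start site.

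Neither ELKS gene was called. Erc1 (Entrez 111173, chromosome 6, from 119520822 to 119798168) encodes the ELKS protein that is made in most tissues and also works at the cell cortex outside neurons. It was counted 2239 and 3114 times in WT, and 1967 and 2436 times in REST-/- libraries, the most of any member in WT. Its levels of 72.3 and 116 CPM in WT and 76.1 and 109.97 CPM in REST-/- ESCs overlapped and again followed the replicate number, and the log2 fold change was -0.019 (SE 0.31, BH-adjusted p = 1.000, edgeR quasi-likelihood).

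Erc2 (Entrez 238988, chromosome 14, from 28435614 to 29291721) encodes the brain form, often called CAST. It was counted 320 and 325 times in WT, and 234 and 220 times in REST-/- libraries. The REST-/- levels of 9.06 and 9.93 CPM were just below the WT levels of 10.3 and 12.1 CPM, with a log2 fold change of -0.24 (SE 0.24, BH-adjusted p = 1.000, edgeR quasi-likelihood). Rimbp2 (Entrez 231760, chromosome 5, from 129266276 to 129459237), whose protein links RIMs to calcium channels through SH3 domains, had the fewest counts summed over the libraries, 94 and 41 in WT, against 114 and 53 in REST-/- libraries. Its log2 fold change of 0.57 (SE 0.52, BH-adjusted p = 1.000, edgeR quasi-likelihood) ran from 0.07 to 1.15 over the fits that dropped 1 library, and it had 2 full RE1 matches in its introns.

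Ordered by level per kilobase of exon, the WT libraries put Erc1 first, at 7.45 and 11.97 RPKM, and Rims2 second, at 3.47 and 4.07 RPKM. Unc13a (1.95 and 1.73 RPKM), Erc2 (1.61 and 1.89 RPKM) and Unc13b (1.30 and 2.02 RPKM) came next and overlapped one another, and Rims3 overlapped Erc2 and Unc13b. Rims3, Rims1, Rimbp2 and Bsn followed between 0.359 and 1.61 RPKM, and Pclo was last at 0.142 and 0.206 RPKM, below all other members in both WT libraries. In the REST-/- libraries Unc13a was first, at 31.6 and 25.3 RPKM, ahead of Erc1 at 7.84 and 11.3 RPKM and Rims2 at 6.73 and 6.69 RPKM, and Rims1 was last at 0.373 and 0.454 RPKM.

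Unc13a made up 10.5% and 6.90% of the RPKM summed over the 10 genes in the WT libraries, against 58.9% and 48.2% in the REST-/- ones. The share of Erc1 was 40.2% and 47.8% in WT, against 14.6% and 21.6% in REST-/- libraries, at a level of its own that overlapped between the genotypes. Without Unc13a, the summed CPM of the other 9 genes was 144 and 209 in WT, against 198 and 255 in REST-/- libraries, and these ranges overlapped. Lengths came from one annotation and may differ from the gene models used for counting.

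**Figure D3:**
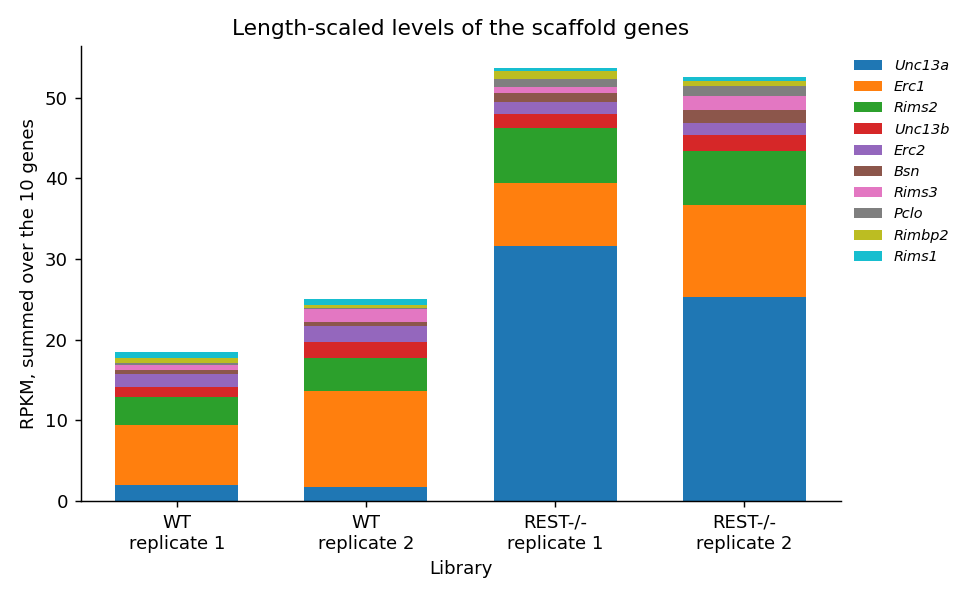
RPKM of the 10 scaffold genes stacked for each library, so that the height of a bar is their sum, 18.5 and 25.0 in the WT and 53.7 and 52.5 in the REST-/- libraries. The Unc13a segment at the base takes most of the difference in height, and the Erc1 segment above it is of similar size in both genotypes.

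Other genes of the active zone, the release machinery and the postsynaptic side were taken from 4 lists. None of their 60 tested genes was called by edgeR's quasi-likelihood test, with 16 active zone paralogs and partners, 21 docking and priming partners, 10 calcium channel subunits and 13 postsynaptic scaffolds. Of the same genes, 8, among them Rab3c, Rph3a and Cplx3, had an unadjusted p under 0.05 in that test, as did 6.71% of all genes tested. The exact test of edgeR called 6 of the 60 with the tag-wise and 7 with the common dispersion, all higher, against 1.16% and 1.59% of all genes tested. Those were Rab3c, Snap25, Cplx1, Rph3a, Stx1a and Cacna1b, and, with the common dispersion, Cplx3. Rab3c, Rph3a and Cplx3 were so low in WT that they passed the filter on low counts through the REST-/- libraries, and could thus be called only as higher. Without them, the exact test called Snap25, Cplx1, Stx1a and Cacna1b under either dispersion. The same genes and Ppfia3 were then left with an unadjusted p under 0.05 in the quasi-likelihood test. The names of Cplx1, Rph3a, Stx1a and Cplx3 were picked after their values were seen.

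Among the active zone paralogs and partners, which include the liprins, CASK, the Mint adaptors and the remaining Unc13 and Rims genes, the median log2 fold change was 0.027, and 9 of 16 were positive. Unc13c, Ppfia2 and Lin7a were too low to test, with at most 6 counts in any library. The highest was Ppfia3, which encodes the liprin that recruits scaffold proteins in brain, at 11.3 and 15.2 CPM in WT, against 19.4 and 27.4 CPM in REST-/- libraries (log2 fold change 0.82, SE 0.29, BH-adjusted p = 0.727, edgeR quasi-likelihood). Apba2 followed at 0.41, and Apba1 and Unc13d were lowest, at -0.29 and -0.18. Of the 16, 2 were higher and 3 lower in both REST-/- libraries, near the 16.5% and 15.4% of all genes tested.

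The docking and priming partners had a median of 0.29, and 15 of 21 were positive, against 49.2% of all genes tested. Of the 21, 8 were higher in both REST-/- libraries and 2 lower in both, beside 16.5% and 15.4% of all genes tested. Without Rab3c, Rph3a and Cplx3, which could count only as higher, 12 of 18 were positive, 5 were higher in both REST-/- libraries and 2 lower in both, and the median was 0.18. Rab3c, a vesicle GTPase that RIM binds, was counted 1 and 3 times in WT, and 100 and 101 times in REST-/- libraries. Scaled for depth, that is a ratio of 60.5, with an exact 95% interval from 23.3 to 224 that covers counting error alone. Snap25, the SNARE protein that Munc13-driven priming engages, was counted 13 and 18 times in WT, and 251 and 166 times in REST-/- libraries (log2 fold change 3.98, SE 0.41, BH-adjusted p = 0.109, edgeR quasi-likelihood). Stx1a, the syntaxin on which Munc13 acts, was at 11.05 and 10.8 CPM in WT, against 33.6 and 38.1 CPM in REST-/- libraries. Rab3a and Rab27a were the lowest of the list, at log2 fold changes of -0.28 and -0.13.

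Of the calcium channel subunits, Cacna1b, the pore of the N-type channel that RIM and RIM-binding proteins hold at release sites, was at 5.65 and 10.98 CPM in WT, against 25.7 and 32.3 CPM in REST-/- libraries (log2 fold change 1.80, SE 0.39, BH-adjusted p = 0.434, edgeR quasi-likelihood). Cacna2d3 was next at 0.75, Cacnb4 and Cacna2d2 were lowest at -0.62 and -0.58, and the median of the 10 was -0.017. The postsynaptic scaffolds, the counterpart on the other side of the synapse, had a median of 0.078 and ran from -0.30 (Dlgap1) and -0.23 (Homer1) to 0.74 (Shank2). The groups of lists were not tested against one another.

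**Figure D4:**
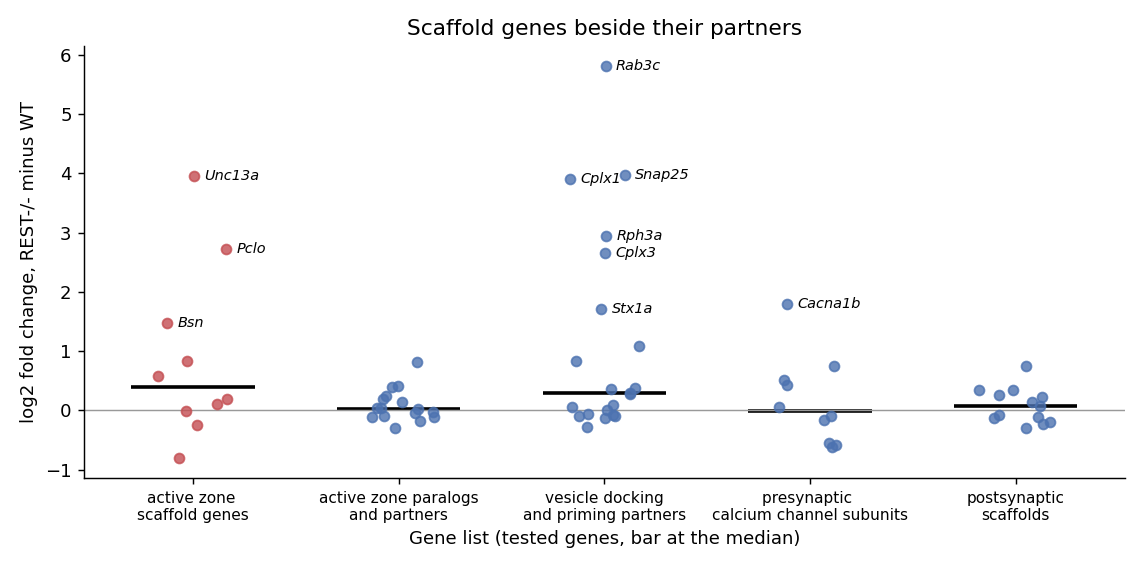
Log2 fold change, REST-/- minus WT, of the tested genes of each list, 1 point per gene, with a bar at the median and names for points above 1.4. The scaffold genes, in red, run from -0.81 to 3.95, and the docking and priming partners hold Rab3c, Snap25 and Cplx1 at or near the level of Unc13a or above it.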

How the data were processed

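Libraries were made by the authors from total RNA with a TruSeq kit and sequenced in 1 pool. Per the labels and the paper's methods, reads were mapped with Subread and assigned to genes with featureCounts. Versions, annotation and strand setting are not given in the sources used here. The deposited values are raw counts per Entrez gene, without normalization. Rows without an identifier (368) held no values and were left out.

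Counts were scaled and tested in R 4.3.3 with edgeR 4.0.16 (TMM, filterByExpr, quasi-likelihood test, prior count 0.125, no block). The standard error is the unshrunk log2 fold change divided by the square root of F. With 2 libraries against 2, an exact permutation test of a single value cannot go below p = 0.333, so none was used. Alternatives were other scalings, filters, edgeR's exact test, DESeq2 1.42.0, a replicate block and each library left out. Tests and motif search were tested on simulated data. Python 3.11.15 was used for positions and figures. P-values set the difference between the genotypes against the spread between these libraries, estimated with information shared across genes. They carry no spread between independent lines of a genotype.

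All members are named. From each list the 2 highest and 2 lowest tested genes are named, with exceptions stated. A named gene and a motif match that this would include are not reported here. The members and lists were chosen with earlier results of these data known. Symbols came from the table, or from RefSeq (GRCm38.p6) by identifier.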

Additional observations from a re-analysis of the deposited data

How the results depend on the processing

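Under RLE, upper quartile and library size scaling, and with a prior count of 2, the calls of the scaffold genes did not change. Over all genes, 9 were called. The number was 53 without a filter on low counts, 3 with at least 10 counts in every library, 233 and 343 with edgeR's exact test under tag-wise and common dispersion, 239 with DESeq2, and 60 to 113 as each library was left out (72 without WT replicate 1, 113 without WT replicate 2, 68 without REST-/- replicate 1 and 60 without REST-/- replicate 2). Of the scaffold genes, 1 was called, against 0 with at least 10 counts in every library, 3 with either exact test and with DESeq2, and 1 to 2 as each library was left out (2, with Pclo added, in each case except 1 without REST-/- replicate 2). Of the 60 partner genes, 0 were called, against 2 without a filter, 6 and 7 with the exact tests, 6 with DESeq2 and 3 to 4 when 1 library was dropped. In each fit without 1 library a genotype has a single library, which is assumed to vary like the other genotype's, so these calls say nothing of stability. The median log2 fold change of the scaffold genes lay between 0.31 and 0.74 with a library left out, the latter without WT replicate 2. Signs changed for Unc13b (-0.092 without WT replicate 1, up to 0.55), Rims3 (-0.50 to 0.93, and -0.41 without WT replicate 1) and Erc1 (-0.33 to 0.37, and 0.23 without REST-/- replicate 1). The count of scaffold genes with an RE1 match, 1 within 20 kb, was 7 with 11 or more letters, 0 within 1 kb, 3 for the spaced form and 2 for the spaced form within 1 kb. The cause of these differences was not tested.

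No source links libraries of the same number. Their deviations from the genotype means had a correlation of 0.766 across 15444 genes, a hint from the data and not from the design. With the replicate number as a block (replicate block), 2621 of the 15444 genes tested were called, 1308 higher and 1313 lower. Of the 10 scaffold genes, 5 were called (Unc13a, Pclo, Bsn and Rims2 higher, Rims1 lower). Of the 60 partner genes, 9 were called, a share no higher than that of all genes tested. Every scaffold gene had at least 41 counts in each library, and counting error was not separated from the spread between libraries.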
